A study of Mus musculus with 6 samples.

Results

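Mouse genes for transferases that build and sulfate glycans, most but not all of them in the Golgi, were followed in RNA-seq of the pancreas after loss of Ptf1a. The family was defined by gene symbol alone. It took in fucosyl (Fut), polypeptide GalNAc (Galnt), galactosyl, GlcNAc and GalNAc (B3galt, B4galt, B3gnt, B4galnt, C1galt, Gcnt) and sialyl (St3gal, St6gal, St8sia) symbols. O-fucose and O-glucose (Pofut, Poglut), heparan sulfate chain (Ext, Extl) and sulfotransferase (Chst, Ndst, Hs2st, Hs3st, Hs6st) symbols were included too. The family held 57 of the 10245 genes in the table. RefSeq lists 118 protein-coding mouse symbols of this pattern, of which 55 were in the table and 63 were not. The other 2 members carry older symbols, B3gnt1 (now B4gat1) and B3galtl (now B3glct). The table lists genes whose highest library held 27.6 normalized counts or more. Fut2, Gcnt3, B3gntl1 and St8sia4 reached that level in Ptf1a cKO libraries alone, so that for these 4 at least 1 Ptf1a cKO library had to exceed every control, and 0 members reached it in control libraries alone.

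The control group was 3 mice of genotype Ptf1a(CreER/+) at 4 months of age, and the Ptf1a cKO group was 3 mice of genotype Ptf1a(CreER/fl) at 5 months, so age and genotype cannot be told apart. Every mouse received tamoxifen at 0.25 mg/g on 3 days and was sacrificed on day 14, and each group held 1 male and 2 females. CreER sits in the Ptf1a locus and replaces its coding sequence, so the controls have a single working Ptf1a allele, and recombination is directed to acinar cells, the enzyme-secreting cells that express Ptf1a in the adult. In the Ptf1a cKO mice the remaining floxed allele is removed in the cells that recombine. RNA came from whole pancreas, in which fewer cells of a type and less RNA per cell cannot be told apart.

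Many of the family's enzymes sit in order along the Golgi and add sugars to proteins and lipids one at a time. Mucin-type chains start with GalNAc on serine or threonine, are branched into cores, lengthened with galactose and GlcNAc, and capped with fucose or sialic acid. Heparan sulfate grows on a linker of xylose and galactose and is then sulfated at several positions. Acinar cells pass large amounts of secreted protein through these compartments, and ductal and gastric mucous cells make mucins that carry dense O-glycans.

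Read counts had been normalized across the libraries by the authors before deposit. Fold changes come from limma on log2(value + 3.41 normalized counts), Ptf1a cKO against control, with standard errors (SE) and two-sided p-values adjusted by Benjamini-Hochberg over all 10245 genes. A gene was called at an adjusted p under 0.05. In a single gene, 3 libraries against 3 give an exact two-sided permutation p of no less than 0.10. Ptf1a itself was 566, 601 and 652 normalized counts in the controls and 19.8, 70.1 and 10.2 in the Ptf1a cKO libraries. Replicate 2 of the Ptf1a cKO mice thus kept the most Ptf1a. It was also the male of that group, so within the group kept Ptf1a and sex cannot be told apart.

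The family was split between rises and falls. Of 57 members, 33 (57.9%) were called, 14 higher and 19 lower, against a background of 33.9% of all genes called, 17.1% higher and 16.8% lower. At 2-fold or more, 6 members were higher and 11 lower, where 6.35% and 4.69% of all genes were. Gcnt3 and Fut2, in the table only through Ptf1a cKO libraries, are among the higher members in both counts. The members' median log2 fold change was 0.14, and that of all genes was 0.036. The groups did not overlap in 35 members (61.4%), against 50.8% of all genes. Without Ptf1a cKO replicate 1, 12 members in place of 19 were called lower. These counts rest on the authors' scaling: when every library was set to the same total, the median gene moved from 0.036 to 1.49, 12 of the 19 lower members turned positive, and Gcnt1, Fut1, Galnt6, Extl1 and Chst2 were still called lower. Relative to the median gene of that scaling the 12 stood between -1.37 (Galnt2) and -0.40 (Pofut1). Equal totals multiply each library by a single factor, which shifts the log2 fold changes of all but low genes nearly alike. Values relative to the median gene, here and below, thus nearly repeat those under the authors' scaling and are no further support. The listed digestive enzymes supplied most of the controls' total. The plot of fold changes by role shows all 57 members.

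**Figure D1:**
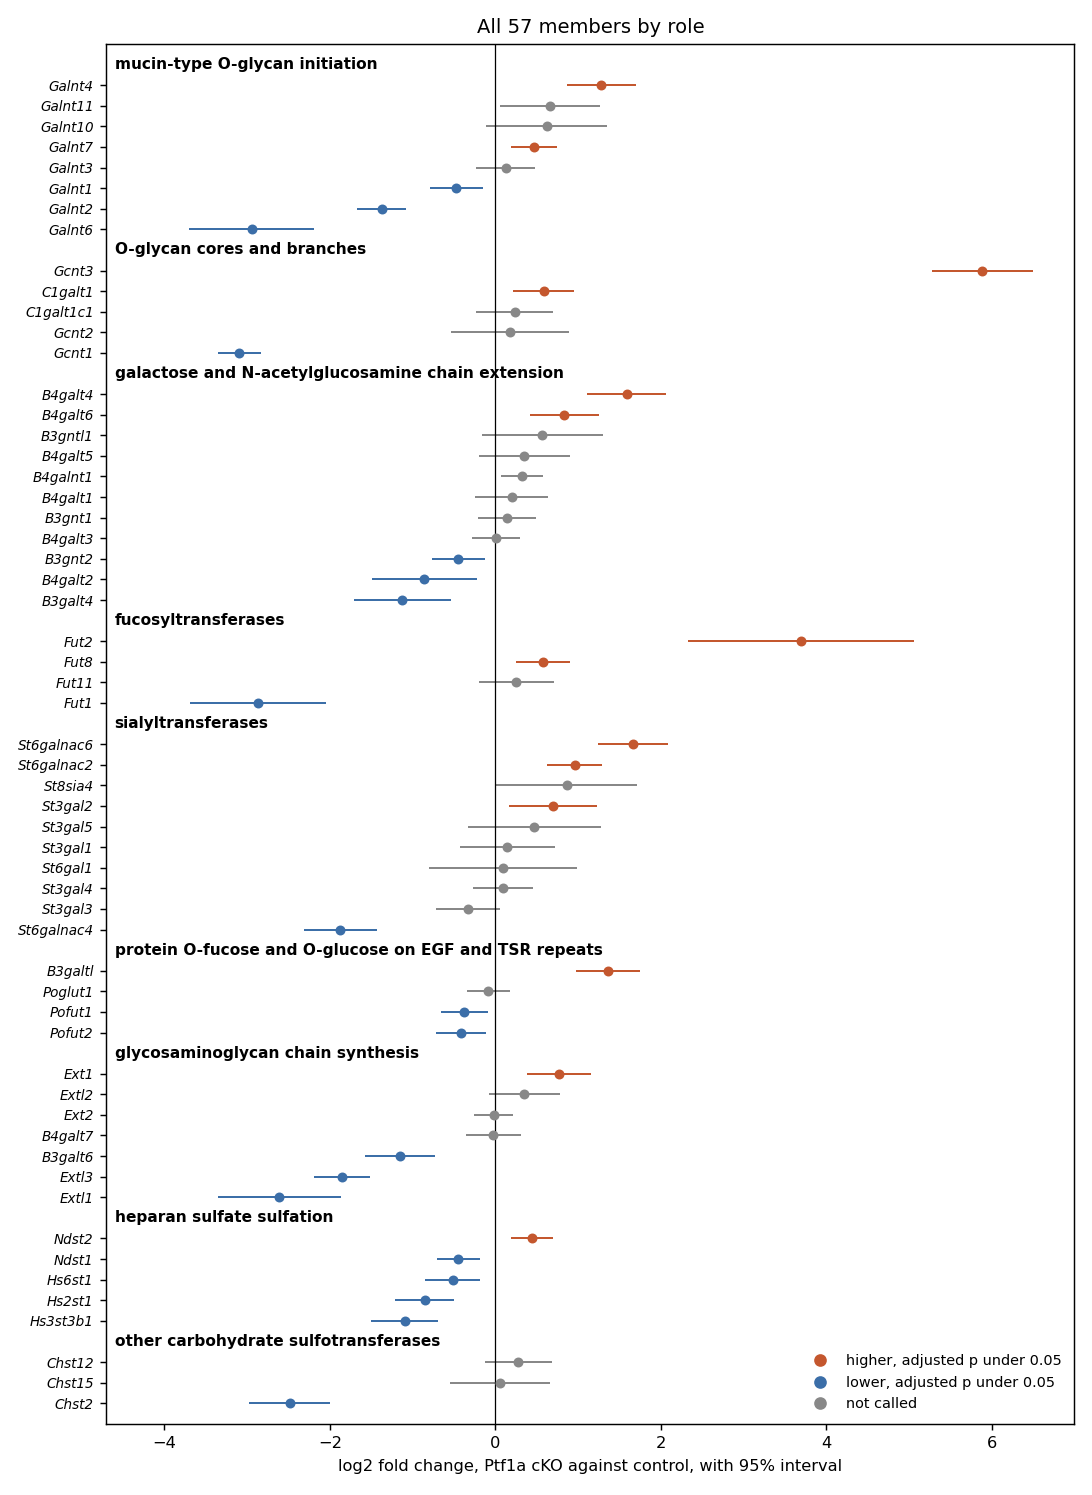
Log2 fold change (Ptf1a cKO against control, authors' scaling) with its 95% interval from limma for the 57 members, grouped by role and colored by call. Within each role points lie on both sides of 0, from -3.10 for Gcnt1 to 5.89 for Gcnt3.

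The branching step of mucin-type O-glycans held both the lowest and the highest fold change of the family, of Gcnt1 and Gcnt3, with the same directions when every library had the same total. Gcnt1 and Gcnt3 both attach the GlcNAc that turns core 1 into core 2, and Gcnt3 is the mucin-type form, which can also make core 4. Gcnt1 was 675, 789 and 653 normalized counts in the controls and 81.3, 78.5 and 78.1 in the Ptf1a cKO libraries, a fall with a log2 fold change of -3.10 (SE 0.115, adjusted p = 5.20e-06). The Ptf1a cKO values lay close together, far below every control. Gcnt3 was 5.90, 9.22 and 8.15 in the controls and 901, 408 and 754 in the Ptf1a cKO libraries, 88.6-fold higher by the means (log2 fold change 5.89, SE 0.271, adjusted p = 8.68e-06), and ranked 6 among the rises of all genes. Every Ptf1a cKO value was far above the controls, and replicate 2 was the lowest. Gcnt3 is in the table only through its Ptf1a cKO values, so its rank and adjusted p are no independent support for a rise. To compare the pair, values were divided by exon length. Per kilobase, Gcnt1 and Gcnt3 summed to 119, 139 and 115 in the controls and 224, 108 and 189 in the Ptf1a cKO libraries, so the sums overlapped. Gcnt3 made up 1.16% to 1.65% of this sum in the controls and 87.4% to 93.7% in the Ptf1a cKO libraries. The larger part thus passed from Gcnt1 to Gcnt3 in each of the 3 Ptf1a cKO libraries, replicate 2 included. The summed levels of ductal, gastric mucous, fibroblast and stellate, and leukocyte markers, described below, were also higher in these libraries. That of digestive enzymes and secreted acinar proteins was lower. The part of these cells in the values of Gcnt1 and Gcnt3 was not tested.

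Of the 5 members that make or branch cores, 2 were called higher and 1 lower (60%, against 33.9% of all genes). Gcnt3, in the table only through Ptf1a cKO libraries, is 1 of the 2 higher. C1galt1, the core 1 synthase, rose, with 63.8 ± 0.962 normalized counts in the controls and 98.7 ± 21.3 in the Ptf1a cKO libraries (mean ± SD, n = 3 each, log2 fold change 0.58, adjusted p = 0.0230). Its call was lost without control replicate 1, control replicate 2 or Ptf1a cKO replicate 3, where the adjusted p reached 0.0786. C1galt1c1, the chaperone that C1galt1 needs, stood at a log2 fold change of 0.23 (adjusted p = 0.407), and Gcnt2, which branches GlcNAc-galactose chains, at one of 0.18 (adjusted p = 0.684).

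The α1,2-fucosyltransferases also went in opposite directions, under the authors' scaling and with the same total in every library. Fut1 and Fut2 add the fucose of the H antigen, and Fut2 is the form of secretory epithelia. Fut1 was 194, 202 and 166 normalized counts in the controls and 13.1, 48.6 and 17.0 in the Ptf1a cKO libraries (log2 fold change -2.87, SE 0.365, adjusted p = 6.01e-04). It fell in all 3, least in replicate 2. Fut2 was 2.28, 1.21 and 0.521 in the controls, all under the floor of 3 normalized counts, and 58.2, 23.9 and 130.1 in the Ptf1a cKO libraries. Against that floor it was at least 23.6-fold higher by the group mean and at least 13.7-fold without Ptf1a cKO replicate 3 (fitted log2 fold change 3.70, SE 0.603, adjusted p = 0.00203, which depends on the pseudocount). The Ptf1a cKO libraries differed widely, with replicate 2 lowest, yet none came near the controls. Fut2, too, is in the table only through its Ptf1a cKO values, so its adjusted p is no independent support for a rise. Per kilobase, Fut1 and Fut2 summed to 70.2, 72.9 and 59.7 in the controls and 15.4, 21.9 and 30.1 in the Ptf1a cKO libraries. Fut2 made up 69.5%, 20.2% and 79.6% of that sum in Ptf1a cKO replicates 1, 2 and 3 and at most 0.598% in a control.

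Fut8 adds the core fucose of N-glycans. It was 401, 424 and 367 normalized counts in the controls and 728, 539 and 532 in the Ptf1a cKO libraries (log2 fold change 0.58, SE 0.144, adjusted p = 0.0145). Its share of the 4 fucosyltransferases' summed level per kilobase went from 39.4% to 68.8%, as that of Fut1 went from 52.7% to 8.9%. Of the 4 fucosyltransferases, 2 were called higher and 1 lower (75%, against 33.9% of all genes). Fut2, in the table only through Ptf1a cKO libraries, is 1 of the 2 higher. Fut11 stood at a log2 fold change of 0.25 (adjusted p = 0.353).

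**Figure D2:**
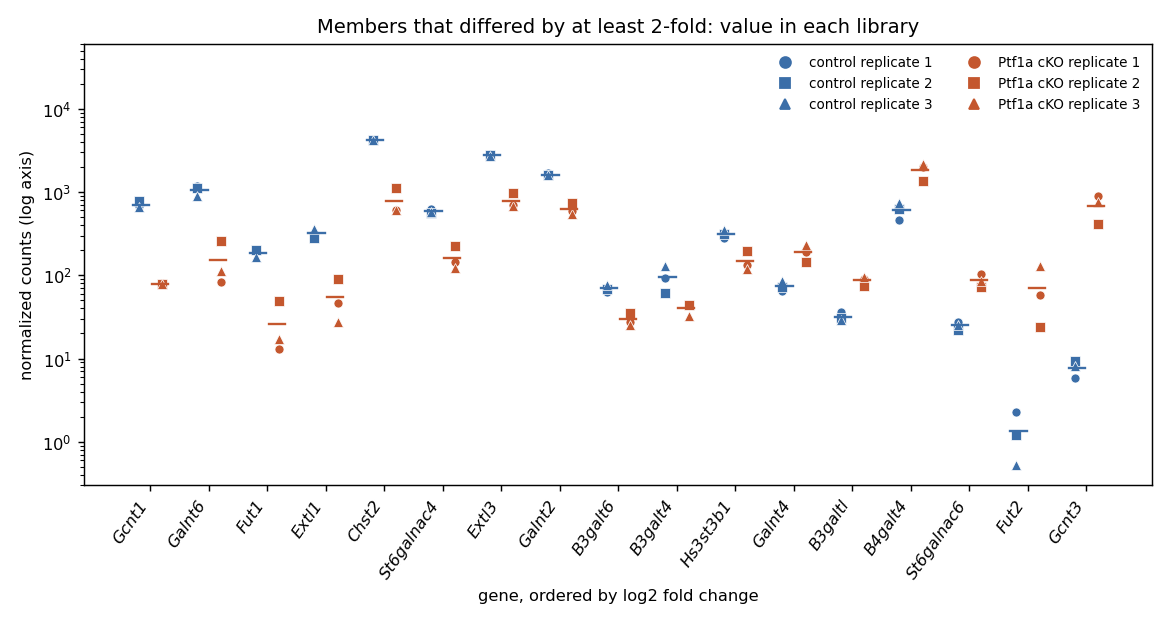
Normalized counts (log axis) in each library for the 17 called members that differed by at least 2-fold, ordered by log2 fold change, with controls in blue, Ptf1a cKO in orange, symbols for replicates and bars for group means. The groups are apart in each gene, and Ptf1a cKO replicate 2 (square) lies nearest to the controls in 16 of the 17.

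PTF1A acts in a complex that binds an E-box (CANNTG) together with a TC-box (TTTCCC). The 250 bases before the RefSeq transcript start (GRCm38.p6) were searched for both, on either strand, which may overlap by a single base. Windows were at hand for 43 members, 56 windows in all. CANNTG was in 66.2% and TTTCCC in 21.9% of the windows of 32851 transcript starts. Among members called lower, 9 of 18 windows held CANNTG and 1 of 18 TTTCCC, and among those called higher, 6 of 10 and 2 of 10. A match is a string of letters and not a binding site. The windows of Fut1 (chr7:45617356-45617605, + strand) and of both starts of Galnt6 (chr15:100729377-100729626 and chr15:100720478-100720727, - strand) are shown because these genes had the lowest fold changes after Gcnt1, with CANNTG in capitals.
Fut1: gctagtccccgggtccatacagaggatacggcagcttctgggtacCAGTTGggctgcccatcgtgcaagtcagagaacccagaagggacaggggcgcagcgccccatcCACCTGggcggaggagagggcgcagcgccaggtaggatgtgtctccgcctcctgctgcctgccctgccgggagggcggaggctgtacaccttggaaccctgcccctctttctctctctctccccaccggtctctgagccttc
Galnt6, first start: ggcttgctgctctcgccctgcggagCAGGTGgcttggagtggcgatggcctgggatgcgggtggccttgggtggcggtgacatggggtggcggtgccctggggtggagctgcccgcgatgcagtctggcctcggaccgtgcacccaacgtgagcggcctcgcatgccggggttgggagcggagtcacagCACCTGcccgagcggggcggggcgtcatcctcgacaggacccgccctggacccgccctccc
Galnt6, second start: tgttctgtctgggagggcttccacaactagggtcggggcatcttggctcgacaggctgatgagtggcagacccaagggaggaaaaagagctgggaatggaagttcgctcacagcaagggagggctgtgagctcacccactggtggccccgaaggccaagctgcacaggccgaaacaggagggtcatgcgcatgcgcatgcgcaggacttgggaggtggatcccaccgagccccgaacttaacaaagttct
Fut1 and the first start of Galnt6 each held CANNTG at 2 places, the second start of Galnt6 held none, and none of the 3 windows held TTTCCC.

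Among the polypeptide GalNAc-transferases that start mucin-type chains, the 2 with the highest level per kilobase in the controls, Galnt2 and Galnt6, both fell under the authors' scaling, although the log2 fold change of Galnt2 turned to 0.12 and that of Galnt1, the third to fall, to 1.02 with the same total in every library (-1.37 and -0.47 relative to its median gene). Of 8 members, 2 were called higher and 3 lower (62.5%, against 33.9% of all genes). Galnt6 was 1183, 1109 and 906 normalized counts in the controls and 83.9, 256 and 113 in the Ptf1a cKO libraries (log2 fold change -2.94, SE 0.335, adjusted p = 3.66e-04). Replicate 2 kept the most, as for Fut1. An antisense gene, Galnt6os, overlaps Galnt6, and since the strand setting of the counting is not stated, reads of the 2 cannot be told apart. RefSeq also lists genes that are not protein-coding over Fut2, Fut8, B4galt4, Extl3, B3galtl and other members, where reads may be shared too. Galnt2, a broadly expressed form, was 1672, 1604 and 1583 in the controls and 596, 740.0 and 546 in the Ptf1a cKO libraries (log2 fold change -1.38, SE 0.134, adjusted p = 1.88e-04). Galnt4, which prefers peptides that already carry GalNAc, went the other way, from 65.0, 72.2 and 86.5 to 191, 144 and 230.0 (log2 fold change 1.28, SE 0.184, adjusted p = 0.00112). The 3 Ptf1a cKO values of Galnt4 were each above every control. Galnt4 lies within Poc1b, which rose by 0.62 on the log2 scale (adjusted p = 0.0345), and reads of the 2 may have been split between them. Galnt7, which also extends glycosylated peptides, rose by 0.47 on the log2 scale (adjusted p = 0.0178) and Galnt1 changed by -0.47 on the log2 scale (adjusted p = 0.0297). The call of Galnt7 was lost without control replicate 1 or Ptf1a cKO replicate 3 (adjusted p up to 0.0724), and that of Galnt1 without control replicate 1 or 2 or Ptf1a cKO replicate 1 or 3 (up to 0.114). Galnt3, Galnt10 and Galnt11 had log2 fold changes of 0.13 to 0.66 (adjusted p of 0.0833 or more). Per kilobase, Galnt6 went from 31.8% to 9.0% of the 8 genes' summed level and Galnt2 from 44.0% to 34.3%, while Galnt4 went from 1.7% to 8.7%.

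**Figure D3:**
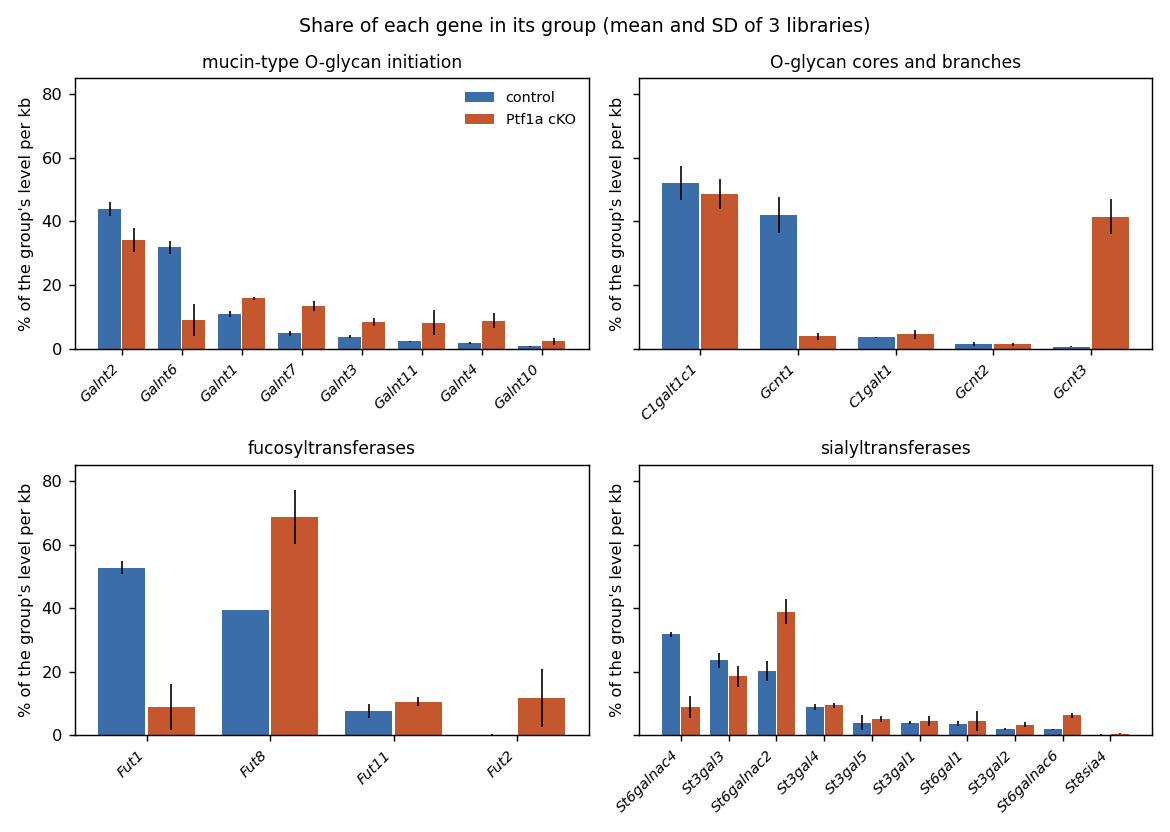
Share of each gene in the summed level per kilobase of exon of its role, in percent, mean and SD of 3 libraries, for controls (blue) and Ptf1a cKO (orange). Gcnt1, Fut1, St6galnac4 and Galnt6 had the larger share in the controls, and Gcnt3, Fut8 and St6galnac2 in the Ptf1a cKO libraries.

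Among sialyltransferases, 3 of 10 were called higher and 1 lower, St6galnac4, which kept a negative fold change (-0.39, or -1.88 relative to the median gene) but not its call with the same total in every library. These 4 of 10 (40%) lie near the 33.9% of all genes called. St6galnac4 puts sialic acid on the GalNAc of sialylated core 1. It was 623, 554 and 580.0 normalized counts in the controls and 144, 222 and 122 in the Ptf1a cKO libraries (log2 fold change -1.87, SE 0.197, adjusted p = 2.62e-04). St6galnac6, best known for sialylating gangliosides, was 27.7, 22.3 and 25.1 in the controls and 103, 73.0 and 85.2 in the Ptf1a cKO libraries (log2 fold change 1.66, SE 0.189, adjusted p = 3.63e-04). The groups were well apart in both genes, in opposite directions. St6galnac2, which sialylates O-glycan GalNAc, was 450.2, 446 and 329.9 in the controls and 889, 756 and 731 in the Ptf1a cKO libraries (log2 fold change 0.96, SE 0.149, adjusted p = 0.00162). Per kilobase, the share of St6galnac2 in the 10 genes' sum went from 20.3% to 38.9% and that of St6galnac4 from 31.8% to 8.9%. St3gal2, which caps core 1 galactose, rose by 0.70 on the log2 scale (adjusted p = 0.0456), a call made without Ptf1a cKO replicate 1 but lost without any other single library (adjusted p up to 0.126). The other 6 were not called: St3gal1, St3gal3, St3gal4, St3gal5 (GM3 synthase), St6gal1 (which caps N-glycans) and St8sia4 (a polysialic acid synthase) had log2 fold changes of -0.33 to 0.87 (adjusted p of 0.106 or more).

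St6galnac4 and St6galnac6 follow each other on chromosome 2 in the RefSeq order of GRCm38, and Gm52551 overlaps both. Their windows (chr2:32586828-32587077 and chr2:32599459-32599708, both + strand) are shown because neighbors went opposite ways, again with CANNTG in capitals.
St6galnac4: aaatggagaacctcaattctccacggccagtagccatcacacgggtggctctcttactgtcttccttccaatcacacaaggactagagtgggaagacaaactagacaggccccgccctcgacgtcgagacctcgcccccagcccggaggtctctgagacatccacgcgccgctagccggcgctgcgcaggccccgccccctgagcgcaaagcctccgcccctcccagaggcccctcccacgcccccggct
St6galnac6: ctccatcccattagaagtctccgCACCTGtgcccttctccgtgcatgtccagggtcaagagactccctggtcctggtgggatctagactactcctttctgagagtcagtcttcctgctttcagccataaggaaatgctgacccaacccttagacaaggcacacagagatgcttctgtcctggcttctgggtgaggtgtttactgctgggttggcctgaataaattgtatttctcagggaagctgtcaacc
CANNTG was found once, in the St6galnac6 window, and TTTCCC in neither. The RefSeq start of St6galnac4, unlike that of St6galnac6, was not among the transcript starts in GENCODE. Fut1 and Fut2, also opposite in direction, lie in a stretch of 5 protein-coding genes on chromosome 7 with Izumo1, Rasip1 and Mamstr between them. Rasip1 stood at a log2 fold change of 0.22 (adjusted p = 0.318). Of the 17 members with a 2-fold difference, 40 pairs with a protein-coding neighbor outside the family and in the table (up to 2 on each side) could be read, with Rasip1 and Ak1 in 2 pairs each. In 12 pairs the neighbor was called in the direction of the member, in 7 in the other direction, and in 21 it was not called, so 47.5% had a called neighbor against 33.9% of all genes. Beside members that fell, Fgf21 next to Fut1 (log2 fold change -3.86, adjusted p = 0.00105), the elastase gene Cela1 next to Galnt6 (-2.46, adjusted p = 0.0203) and the zinc transporter gene Slc30a2 next to Extl1 (-2.18, adjusted p = 0.00233) fell too. Pafah2 on the other side of Extl1 (1.45, adjusted p = 1.60e-04), Pcsk5 near Gcnt1 (1.62, adjusted p = 0.0199) and Ints9 next to Extl3 (1.01, adjusted p = 0.0123) rose, and Fam81a next to Gcnt3, which rose, fell (-2.81, adjusted p = 0.00220). These neighbors were chosen after their values were seen.

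In the group for extension of chains with galactose and GlcNAc, 2 of 11 members were called higher and 3 lower (45.5% called, against 33.9% of all genes). The group also holds B4galnt1, which adds GalNAc, and B3gnt1 (now B4gat1), which adds glucuronic acid. The 3 lower members (B3galt4, B4galt2 and B3gnt2) turned positive with the same total in every library, but stood at -1.20, -0.96 and -0.48 relative to its median gene. B4galt4, a galactosyltransferase that favors 6-sulfated GlcNAc, was 465, 623 and 733 normalized counts in the controls and 1985, 1359.9 and 2163 in the Ptf1a cKO libraries (log2 fold change 1.59, SE 0.212, adjusted p = 7.61e-04). All 3 Ptf1a cKO values exceeded the highest control. Per kilobase, B4galt4 went from 28.2% to 52.1% of the 11 genes' sum, and B4galnt1 from 35.0% to 26.9%. B4galt6, a lactosylceramide synthase, rose by 0.84 on the log2 scale (adjusted p = 0.00797). B3galt4, the GM1 synthase, was 92.6, 61.1 and 130.5 in the controls and 43.9, 44.1 and 32.3 in the Ptf1a cKO libraries (log2 fold change -1.12, SE 0.259, adjusted p = 0.0103). Its controls varied more among themselves than the lowest of them differed from the Ptf1a cKO values. B4galt2, which makes N-acetyllactosamine, changed by -0.86 on the log2 scale (adjusted p = 0.0415), and B3gnt2, the main poly-N-acetyllactosamine GlcNAc-transferase, by -0.44 (adjusted p = 0.0401). The call of B4galt2 was lost without control replicate 2 or 3 or Ptf1a cKO replicate 1 or 3 (adjusted p up to 0.160), and that of B3gnt2 without any single library but Ptf1a cKO replicate 3 (up to 0.110). The 6 others were not called, with log2 fold changes from 0.012 (B4galt3) to 0.57 (B3gntl1). Among them was B4galnt1, the GM2 synthase, at 0.32 (adjusted p = 0.0527), whose gene overlaps Slc26a10.

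Of the 3 other sulfotransferases, Chst2 was the single one called (33.3%, close to the share of all genes). Chst2 sulfates GlcNAc at carbon 6, the substrate that B4galt4 favors. It was 4101, 4180.2 and 4249.9 normalized counts in the controls and 613, 1106 and 606 in the Ptf1a cKO libraries, a 5.39-fold fall by the means (log2 fold change -2.48, SE 0.217, adjusted p = 1.14e-04). Chst2 thus fell as B4galt4 rose, and replicate 2 was nearest to the controls in both. Chst12 and Chst15, which sulfate chondroitin, had log2 fold changes of 0.28 (adjusted p = 0.254) and 0.058 (adjusted p = 0.887).

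Of the 7 members that build glycosaminoglycan chains, 3 were called lower (Extl1, Extl3 and B3galt6) and 1 higher (Ext1), together 57.1% against 33.9% of all genes, and B3galt6 turned to 0.24 with the same total in every library (-1.25 relative to its median gene). Extl3, which starts the chain, was 2841, 2808 and 2684 normalized counts in the controls and 695, 962 and 676 in the Ptf1a cKO libraries (log2 fold change -1.85, SE 0.151, adjusted p = 8.87e-05). Its log2 fold change came to -0.36 with the same total (-1.84 relative to the median gene), and it was no longer called. Extl1, a related GlcNAc-transferase, was 316, 282 and 361 in the controls and 46.9, 90.0 and 27.7 in the Ptf1a cKO libraries (log2 fold change -2.61, SE 0.329, adjusted p = 5.82e-04). B3galt6, which adds the second galactose of the linker, was 63.8, 68.7 and 75.7 in the controls and 27.4, 35.7 and 25.5 in the Ptf1a cKO libraries (log2 fold change -1.15, SE 0.188, adjusted p = 0.00200). The groups were apart in all 3 genes. The chain polymerase has the subunits Ext1 and Ext2. Ext1 rose by 0.77 on the log2 scale (adjusted p = 0.00882), whereas Ext2 had a log2 fold change of -0.021 (95% interval ± 0.239, adjusted p = 0.895). Extl2 and B4galt7, the linker's first galactosyltransferase, had log2 fold changes of 0.35 and -0.022 and were not called.

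All 5 members that sulfate heparan sulfate were called, 4 lower and 1 higher, against 33.9% of all genes called, and the 4 lower ones turned positive with the same total in every library, which moved the median gene to 1.49. Relative to that median they stood at -1.11 (Hs3st3b1), -0.87 (Hs2st1), -0.53 (Hs6st1) and -0.45 (Ndst1). A nearly uniform shift of all genes makes these values repeat those under the authors' scaling, so they are no further support. Hs3st3b1, a 3-O-sulfotransferase, was 282, 314 and 348 normalized counts in the controls and 133, 193 and 119 in the Ptf1a cKO libraries (log2 fold change -1.09, SE 0.180, adjusted p = 0.00211). Hs2st1, the 2-O-sulfotransferase, changed by -0.85 on the log2 scale (adjusted p = 0.00352), and Hs6st1, a 6-O-sulfotransferase, by -0.52 (adjusted p = 0.0240). RefSeq lists a protein-coding gene, Gm43707, that overlaps Hs2st1, where reads may be shared. The N-deacetylase/N-sulfotransferases act first and went in opposite directions. Ndst1 was 537, 524 and 559 in the controls and 353, 430.2 and 406 in the Ptf1a cKO libraries (log2 fold change -0.45, SE 0.114, adjusted p = 0.0161), and Ndst2 rose from 91.9 ± 4.74 to 126 ± 3.33 (SD, n = 3 each, log2 fold change 0.45, adjusted p = 0.0162). The call of Hs6st1 was lost without control replicate 2 or 3 or Ptf1a cKO replicate 1 or 3 (adjusted p up to 0.0820), that of Ndst1 without control replicate 1 or Ptf1a cKO replicate 1 (up to 0.0588) and that of Ndst2 without Ptf1a cKO replicate 3 (0.0551).

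Enzymes of O-fucose and O-glucose act on folded repeats of secreted proteins and receptors such as Notch, and of 4 members 1 was called higher and 2 lower (75%, against 33.9% of all genes). B3galtl puts glucose on the O-fucose of thrombospondin repeats. It was 35.8, 30.4 and 28.9 normalized counts in the controls and 91.5, 74.9 and 94.4 in the Ptf1a cKO libraries (log2 fold change 1.36, SE 0.170, adjusted p = 5.49e-04). Pofut2, which adds that fucose first, was 285, 242 and 333 in the controls and 218, 215 and 206 in the Ptf1a cKO libraries (log2 fold change -0.41, SE 0.133, adjusted p = 0.0402), a fall that turned to 1.07 with the same total. Relative to the median gene under the same total, B3galtl stood at 1.28 and Pofut2 at -0.42. These consecutive enzymes thus lay on opposite sides of it, as they did under the authors' scaling, which the nearly uniform shift repeats. Pofut1, which fucosylates the repeats of Notch, changed by -0.37 on the log2 scale (adjusted p = 0.0462), which also turned positive (1.09, or -0.40 relative to the median gene), and Poglut1, which adds O-glucose, stood at -0.085 (adjusted p = 0.592). The calls of Pofut1 and Pofut2 were lost in 5 of the 6 fits without 1 library, those of both without control replicate 1 or 3 or any Ptf1a cKO replicate (adjusted p up to 0.150 and 0.103).

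Across the 33 called members, Ptf1a cKO replicate 2 was nearest to the controls in 23 (69.7%), and in 16 of the 17 with a 2-fold difference, Gcnt1 being the exception. Among all called genes that share was 60.2%, and 68.3% among those with a 2-fold difference, so this library was also nearest for most called genes outside the family. It came from the only Ptf1a cKO male, which also kept the most Ptf1a, so sex and kept Ptf1a cannot be told apart. All 17 kept their calls when any single library was left out, and 22 of the 33 did.

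**Figure D4:**
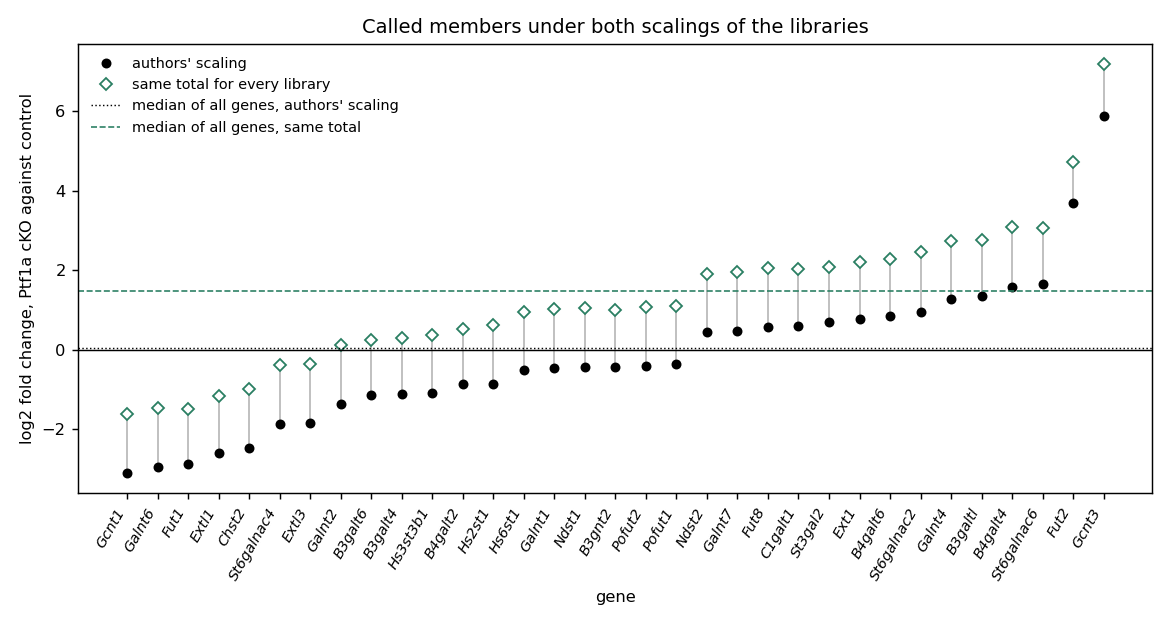
Log2 fold change (Ptf1a cKO against control) of the 33 called members under the authors' scaling (black points) and with the same total in every library (open diamonds), with the median of all genes under each (dotted, 0.036, and dashed, 1.49). Of the 19 members below 0, 12 cross it, and the 14 above stay above.

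Other genes of the pathway were read from lists. Of 13 nucleotide sugar transporters in the table (15 listed), 4 were called higher and 3 lower (53.8%, against 33.9% of all genes). Slc35a3, the UDP-GlcNAc transporter, rose, with 184 ± 15.7 normalized counts in the controls and 653 ± 115 in the Ptf1a cKO libraries (mean ± SD, n = 3 each, log2 fold change 1.80, adjusted p = 8.44e-05), and Slc35c2, linked to GDP-fucose, went from 1348 ± 113 to 512 ± 109 (log2 fold change -1.41, adjusted p = 3.66e-04). Of 20 genes for donor synthesis (24 listed), 5 were higher and 1 lower, a share (30%) near that of all genes. Gmds, the first enzyme from GDP-mannose to GDP-fucose, rose from 123 ± 4.89 to 421 ± 85.3 (log2 fold change 1.73, adjusted p = 1.37e-04), and Gfpt2, of the hexosamine pathway, by 1.18 on the log2 scale (adjusted p = 0.00154). Of 9 genes that trim and branch N-glycans (13 listed), 6 were lower and 1 higher (77.8%, against 33.9% of all genes), with Mgat1, which opens the branching, at a log2 fold change of -0.85 (adjusted p = 9.19e-04).

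Of 20 other Golgi transferases (37 listed), 4 were lower and 1 higher (25%, under the share of all genes). Ggta1, which makes the α-galactose epitope, went from 695 ± 28.0 to 182 ± 86.0 normalized counts (SD, n = 3 each, log2 fold change -2.01, adjusted p = 6.84e-04), and Lfng, a fringe enzyme that extends O-fucose on Notch, from 317 ± 24.1 to 124 ± 3.59 (log2 fold change -1.33, adjusted p = 9.09e-05). Of 9 sialidases, fucosidases and other glycan-degrading enzymes and sulfatases (12 listed), 5 were higher and 0 lower by limma (55.6%, against 33.9% of all genes), among them Sulf2 (log2 fold change 1.05), which removes 6-O-sulfate from heparan sulfate. At an unadjusted p under 0.05, 6 genes of this list were higher and 1 lower. Over the 5 lists 16 genes were higher and 14 lower, the latter 8 without control replicate 2, and with the same total in every library, which lifts the median gene to 1.49, 67 were higher and 1 lower.

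Markers of several cell types in the tissue also differed between the groups. Of 31 digestive enzymes and secreted acinar proteins in the table (32 listed), 24 were lower and 1 higher (80.6% called, against 33.9% of all genes), and their sum was 14759562 to 18049071 normalized counts in the controls and 2117128 to 5760637 in the Ptf1a cKO libraries. Sums of the other lists are given as the range over the controls and then over the Ptf1a cKO libraries. Of 17 ductal markers (19 listed), 11 were higher and 0 lower by limma (64.7%), also 0 lower at an unadjusted p under 0.05 (sums of 6454 to 7127 and of 29524 to 113379), with log2 fold changes of 2.21 for Sox9 and 5.14 for Spp1. Of 5 gastric mucous markers (14 listed), 3 were higher (60%, sums of 20540.3 to 24149 and of 81063 to 154788), namely Gkn3, Muc5ac and Agr2, while Tff2 (log2 fold change -0.21) and Muc6 (0.71) were not called. Fibroblast and stellate markers were higher in 14 of 16 (87.5%, sums of 3721 to 4227 and of 6943 to 12543) and leukocyte markers in 9 of 14 (64.3%, 22 listed, sums of 556 to 911 and of 1383 to 3399). Endothelial markers were higher in 1 of 11 (9.09%, 12 listed, sums of 1198 to 1471 and of 1217 to 1509), and endocrine markers in 0 of 12 by limma, also 0 at an unadjusted p under 0.05 (sums of 12081 to 44492 and of 6159 to 34969). Tspan8, a ductal marker, was the single listed marker with every control at or under 3 normalized counts, and no marker was at 0 in all libraries. Tspan8 is thus in the table only through Ptf1a cKO libraries, at least 1 of which had to exceed every control. Other markers with low controls may have entered in the same way, which was not counted and may raise the shares called higher. The part that these cells had in the values of the members was not tested.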

How the data were processed

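RNA-seq libraries (Illumina TruSeq, single-end reads on a HiSeq 2500) were made from whole pancreas of 3 control and 3 Ptf1a cKO mice. Per the submitters' processing notes, TopHat2 2.0.4, Bowtie 0.12.7.0, SAMtools 0.1.18.0, HTSeq 0.6.0 and the genome build mm9 were used, without stated roles. The authors aligned with TopHat2 and used edgeR with TMM scaling. The strand setting and the annotation are not given in the sources used here.

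The authors deposited 1 table of signal values, namely normalized read counts per gene symbol and library, with decimals. Whole reads per gene could not be recovered from it, so models of read counts were not used, and precision rests on the 3 mice per group. The paper gives the number of uniquely aligned reads of each library, which was similar in both groups. The 3 entries that name no gene held 75.7% to 82.6% of a library's values and were left out. Gene totals of 5527104 to 21175836 follow from the scaling.

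Values were divided by 13.6, log2(value + 0.25) was taken (a pseudocount of 3.41 normalized counts), and groups were compared by limma 3.58.1 in R 4.3.3 with a mean-variance trend over 10245 genes, after a test on simulated data. A minimum mean of 0.25 removed 0 genes. Tables were made in Python 3.11.15 with pandas 2.3.3. The labels name separate mice, and same-numbered libraries deviated together with r = 0.039, 0.134 and 0.144 across genes, so the numbers were not taken as pairs.

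The members and lists were chosen with earlier results of these data known. By rule, values in all libraries are given for Fut2, for called members with a 2-fold difference, and for the member with the highest mean or smallest adjusted p in each role. Other called members are named with a fold change. The values of some genes of the other lists are not reported here. Exon lengths came from GENCODE M21, and promoter sequences and gene order from RefSeq (GRCm38), while the files use mm9, so no gene coordinates of the files are given. Alternatives were other pseudocounts, filters and scalings, no trend, the replicate block, sex as a covariate, a stricter threshold and each library left out.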

Additional observations from a re-analysis of the deposited data

How the results depend on the processing

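The scaling of the libraries had the largest effect on the counts. With the same total in every library, 45 members were called higher and 5 lower, in place of 14 and 19, and over the other glycosylation lists 67 higher and 1 lower, in place of 16 and 14. Members that were negative then had positive log2 fold changes: B3galt4 0.29, B3galt6 0.24, Galnt2 0.12, Hs3st3b1 0.38, Ndst1 1.04 and Pofut2 1.07. That scaling lifted the median gene to 1.49, and each of these 6 stayed below it, which follows from a nearly uniform shift of all genes. With the same total after digestive enzymes were left out, 10 members were higher and 19 lower, and 10 genes of the other lists were higher. At an adjusted p under 0.01, 9 members were higher and 11 lower, and 7 and 8 genes of the other lists. When single libraries were left out, 10 (without Ptf1a cKO replicate 3) to 15 members were higher and 12 (without Ptf1a cKO replicate 1) to 16 lower, and 11 to 17 genes of the other lists were higher and 8 (without control replicate 2) to 12 lower. The cause of these shifts was not tested, beyond the smaller number of libraries in the last set. The replicate block gave 13 members higher and 18 lower, having lost St3gal2 and Pofut1, and Ptf1a cKO replicate 1 correlated best with control replicate 2 rather than with its own number. Other pseudocounts, filters, the median of ratios, no trend and sex as a covariate kept each count of members within 1.5 times. Single calls were lost without a trend (B3gnt2, Galnt1, Pofut1 and Pofut2), with sex as a covariate (B4galt2, Pofut1 and Pofut2), by the median of ratios (St3gal2) and with digestive enzymes left out of the total (C1galt1, Galnt7, Ndst2 and St3gal2). Fut2 was called under every alternative in which it was tested. Models of read counts were not run, because whole reads could not be recovered. The numbers of uniquely aligned reads given in the paper were similar in both groups and were not used in the fits.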
